A study of Arabidopsis thaliana with 9 samples.

Results

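The transcripts of line774, 1 of 2 mutant lines of Arabidopsis thaliana in a study of epigenetic mutants, were compared with those of the wild-type control. The groups were taken from the sample titles, and 6 of the series' 9 samples belong to this comparison, 3 of line774 and 3 of the control. The other 3, of the second mutant line, line1135, are used to show where line774 differed from it. They were also part of the fit, so they share in the estimate of spread behind every standard error and p-value. All 3 groups were whole plants at growth stage 1.04, raised for 17 days on plates with 50 seeds each at 21 °C with daily periods of 16 h light and 8 h dark, on a medium that held ammonium iron citrate and sucrose. The label of a T-DNA knock-out stands on every sample, control included, so the labels do not say which gene line774 lacks, and the targeted gene could not be checked. The labels do not say whether a group's 3 samples came from separate plates, so each p-value reflects the spread of these samples alone, and that spread may be technical. The number of arrays limits the precision of every value.

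RNA was measured on the Affymetrix ATH1 array, which reads each transcript through several short probes, together called a probe set. Its deposited signal is a linear intensity, and the values below are signals in control replicates 1, 2 and 3 and then in line774 replicates 1, 2 and 3. Changes are differences of log2(signal + 16) with their standard errors, from limma fitted to all 22746 probe sets. A gene is said to rise or fall where limma's Benjamini-Hochberg adjusted p was under 0.05, at any fold, and the offset of 16 understates the change of dim transcripts. A gene is represented by its brightest probe set, which gave 12293 protein-coding genes. The annotation used here names no gene for 8730 probe sets, so most gene groups below are measured only in part. Across the 6 arrays, rank correlations were 0.972 to 0.975 within the control, 0.971 to 0.973 within line774 and 0.946 to 0.955 between them. Of the markers of organs, PYK10, a beta-glucosidase abundant in roots, had signals of 3023, 3319.7 and 3546 in the control and 2320.3, 2816 and 3388 in line774. RCA, the activase of the carbon-fixing enzyme Rubisco, had 5187, 5427 and 6439 and then 5976, 5984 and 5740.2. The pollen-type gene AT1G29140 lay between 0.522 and 1.78 on all 6 arrays, near background. Neither the 3 root nor the 2 flower markers passed the test. In whole plants, fewer cells of a type and less RNA per cell cannot be told apart.

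Epigenetic mutants lose the DNA methylation or chromatin marks that keep transposons and some genes silent. In Arabidopsis such plants usually express many transposon remnants, and a smaller number of protein-coding genes that carry the same marks, while other genes respond to the altered state of the plant. Probe sets of pseudogene-type loci rose in line774 in 126 of 989 cases (12.7%), and the comparison is described here for protein-coding genes.

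Protein-coding genes changed in both directions and mostly by little. Of all 22746 probe sets, 1502 rose (6.60%) and 1366 fell (6.01%) in line774. Of the 12293 genes, 697 rose (5.67%) and 675 fell (5.49%). Changes under 2-fold made up 609 of the increases (87.4%) and 579 of the decreases (85.8%), with a median log2 change of 0.51 among all increases and -0.59 among all decreases. At 2-fold or more, 88 genes rose (0.716% of those tested) and 96 fell (0.781%). The genes that rose by 2-fold were dim in the control, with a median signal of 19.3, while those that fell by 2-fold had a median control signal of 212, against 32.1 for all genes. At the offset used, a gene with a control signal under 16 cannot fall by 2-fold. All 3 arrays of line774 lay above all 3 of the control for 692 of the 697 genes that rose, and below them for 671 of the 675 that fell. Such separation without a test was common, at 15.7% of all genes upward and 13.0% downward. Without control replicate 1 the counts at any fold dropped to 396 higher and 423 lower, the largest effect among the 6 single-array omissions, while the counts at 2-fold stayed between 73 and 94 higher and between 78 and 118 lower over these omissions. With 1 in place of 16 as the offset, 199 genes rose and 164 fell by 2-fold, and with 64 the counts were 31 and 40.

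The strongest increases were of genes at or near background in the control. AT4G29200 had signals of 3.43, 5.59 and 3.28 in the control, none above background, and 520.1, 545 and 486 in line774, at least 86.1-fold higher. AT1G20400 went from 1.12, 0.292 and 4.65 to 378, 253 and 278, at least 49.8-fold higher. AT5G24240, a protein related to type II phosphatidylinositol 4-kinases, went from 1.197, 0.926 and 0.533 to 159.6, 143 and 123, at least 23.5-fold higher. For these 3 genes no control array exceeded the highest Bacillus control signal, the background used here, and no line774 array came near it. AT5G01080 went from 1.38, 1.57 and 6.79 to 285, 242 and 237, a change of 3.82 ± 0.12. AT1G58025 changed by 2.88 ± 0.12, AT2G15560 by 2.72 ± 0.14 and AT5G03090 by 2.64 ± 0.27, all from control signals of at most 21.6. QQS, an orphan gene with a role in starch content, differed in that it was already expressed, at 163, 138 and 133, and reached 1294, 1223 and 1379. Of the 88 genes that rose by 2-fold, 14 were at or below background on all control arrays (15.9%), a share near the 16.8% found among all genes.

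**Figure D1:**
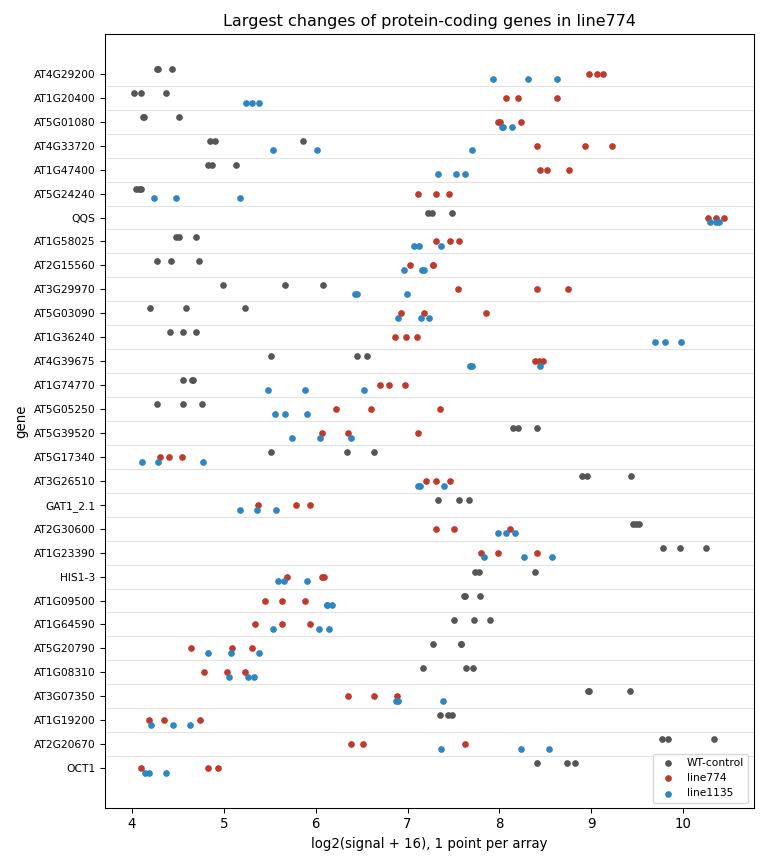
Signals of the 15 largest increases and 15 largest decreases of protein-coding genes in line774, as log2(signal + 16), with 1 point per array and the groups in separate colours. The line774 points lie clear of the WT-control points for each gene, since the genes were chosen for that, and those of line1135 lie near line774 for most decreases. Among the increases, the difference between the lines passed for AT4G29200, AT1G20400, AT4G33720, AT1G47400, AT5G24240, AT3G29970 and AT1G36240, and their points lie apart.

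Among the other large increases were AT4G33720, AT3G29970 and AT1G36240. AT4G33720, of the family of secreted PR1-like proteins, went from 12.8, 42.2 and 14.0 to 584, 471 and 325, a change of 3.65 ± 0.48 (adjusted p = 0.000665), with no overlap between the groups although control replicate 2 was brighter than the other two. AT3G29970 went from 15.9, 51.8 and 34.7 to 323, 413 and 172. AT1G36240, a ribosomal protein L30 of the large cytosolic subunit, rose from 9.96, 7.47 and 5.33 to 121, 100.4 and 110.5. In line1135 the same gene stood at 995, 811 and 876, so line774 was lower than that line by 2.84 ± 0.11 on the log2 scale (adjusted p = 4.84e-07).

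Genes of the response to iron deficiency were higher in line774. Arabidopsis roots short of iron acidify the soil, reduce ferric iron and import it, and secrete coumarins that mobilise it, under bHLH transcription factors, small IMA peptides that raise the response and BTS-type E3 ligases that restrain it. Of 24 genes of this response, a list chosen after the values were seen, 11 were measured and 9 rose, against 5.67% of all genes. At 2-fold or more 7 of them rose, against 0.716% of all genes. All 11 had positive changes, with a median of 1.32 on the log2 scale against 0.02 over all protein-coding genes. In each of the 6 single-array omissions 8 or 9 of them passed.

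AT1G47400, a peptide of the IMA (FEP) family, had 12.5, 19.1 and 13.3 in the control and 418, 351 and 331 in line774, a change of 3.63 ± 0.12 (adjusted p = 1.10e-08), the largest of the group. BHLH101, a transcription factor of the response, went from 2.33, 5.58 and 0.903, at or below background, to 43.7, 32.5 and 28.1, at least 5.70-fold higher. AT1G74770, the E3 ligase BTSL1, went from 9.24, 9.46 and 7.53 to 87.9, 95.1 and 109, a change of 2.19 ± 0.22. Every line774 array exceeded every control array for these regulators. A second probe set of AT1G74770, near background, gave 0.11 (adjusted p = 0.402). The related ligase BTSL2, AT1G18910, changed by 0.64 ± 0.17 (adjusted p = 0.0275), a call that held in 1 of the 6 single-array omissions, with an adjusted p of up to 0.102. PYE, a bHLH factor, went from 28.7, 38.7 and 34.7 to 53.4, 68.2 and 40.4 and did not pass (adjusted p = 0.147).

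A pair of enzymes of coumarin synthesis on the list also rose. AT3G13610, F6'H1, which makes the precursor of the coumarin scopoletin, went from 59.3, 102 and 77.9 to 286, 319 and 314, a change of 1.77 ± 0.24 (adjusted p = 0.000905). AT3G12900, S8H, which makes fraxetin, went from 8.72, 9.27 and 1.42 to 41.5, 40.9 and 36.3. AT5G05250, of unknown function, went from 3.38, 7.57 and 11.2 to 148, 81.2 and 58.7, and AT3G07720, a kelch-repeat protein, from 89.6, 97.2 and 86.2 to 224, 242 and 229. AT3G58060, the manganese transporter MTP8, was dim, at 9.59, 4.89 and 4.49 and 16.4, 17.1 and 18.7, and rose by 0.59 ± 0.12. None of these line774 ranges overlapped the control's. AT1G73120 did not pass, with 127, 130.0 and 61.9 and 128, 116 and 119. The root markers did not pass beside this group (EXPA7 changed by 0.49 ± 0.16, adjusted p = 0.0808, PYK10 by -0.23 ± 0.14 and EXPA18 by 0.20 ± 0.20), and their part in it was not tested.

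**Figure D2:**
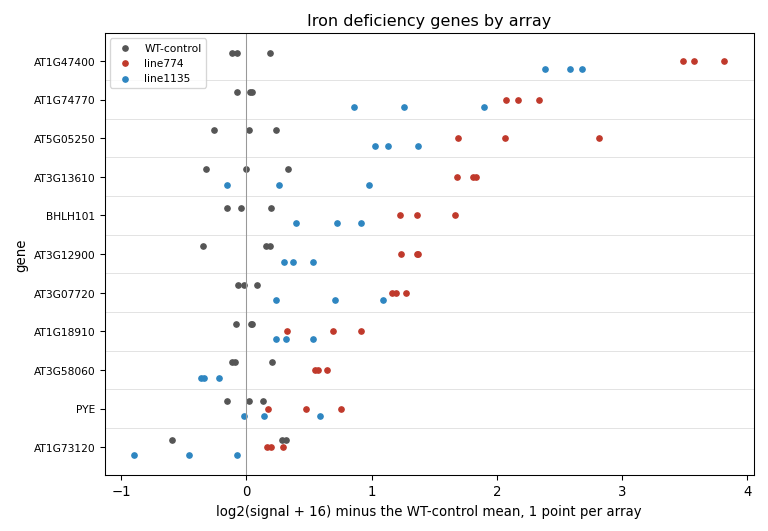
Iron deficiency genes by array, as log2(signal + 16) minus the mean of the 3 WT-control arrays, with 1 point per array. The line774 points lie to the right of all WT-control points for the 9 genes that rose, and for most of them the line1135 points lie between both groups or near the control.

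Genes of cell walls moved both ways. Expansins loosen walls and xyloglucan transferases cut and rejoin xyloglucan, and 27 of them were measured, of which 4 rose and 4 fell, against 5.67% and 5.49% of all genes, with a median of 0.04. The 4 that rose were EXPA4, EXPB2, EXPB3 and EXPA15. EXPA4 went from 101, 114 and 90.2 to 269, 257 and 267, a change of 1.26 ± 0.08 (adjusted p = 5.66e-06). EXPB3 went from 66.9, 77.0 and 77.9 to 157, 155 and 184, EXPB2 rose by 1.22 ± 0.22 and EXPA15 by 0.77 ± 0.11. The 4 that fell were EXLA2 (-0.88 ± 0.13), XTH33 (-0.72 ± 0.17), EXPA8 (-0.64 ± 0.16) and EXLA1 (-0.57 ± 0.16). The calls of the last 3 were each lost without at least 2 of the 6 arrays, with an adjusted p of up to 0.0728 for XTH33, 0.0851 for EXPA8 and 0.154 for EXLA1, so that without line774 replicate 2 only 1 gene of the group fell, and 2 fell without control replicate 2 or line774 replicate 1. EXGT-A3, another xyloglucan transferase, not among these 27, went from 872, 943 and 924 to 526, 495 and 576, a change of -0.76 ± 0.08.

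Pectate lyases, which cleave pectin, and class III peroxidases, secreted enzymes that cross-link or loosen walls with hydrogen peroxide, rose more often than they fell. Of 23 measured pectate lyase-like genes, on a list also chosen after the values were seen, 5 rose and 1 fell (median 0.10), against 5.67% and 5.49% of all genes. AT4G24780 led them, from 257, 291 and 285 to 662, 593 and 693, a change of 1.18 ± 0.09 (adjusted p = 1.26e-05), followed by AT1G04680 (0.86 ± 0.12), AT1G67750 (0.81 ± 0.14) and AT3G53190 (0.75 ± 0.14). The fifth that rose, AT3G27400 (0.66 ± 0.16), and the one that fell, AT3G55140 (-0.35 ± 0.09), each kept the call in 2 of the 6 single-array omissions, with an adjusted p of up to 0.0751 and 0.118. Of 15 measured members of glycosyl hydrolase family 9, which includes endoglucanases, 2 rose, against 5.67% of all genes, with a median of 0.18. This list was also chosen after the values were seen, and so small a count does not set the family apart from all genes. GH9B13 went from 82.3, 108 and 131 to 223, 258 and 268 and GH9C2 from 121, 138 and 124 to 256, 220.0 and 221, while the other 13 did not pass.

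Of 55 measured class III peroxidases, a list chosen in the same way, 11 rose, 7 of them by at least 2-fold, 1 fell and 43 did not pass, with a median of 0.09. Of all genes 5.67% rose, 0.716% by 2-fold, and 5.49% fell. AT5G19890 went from 3.18, 18.4 and 10.3 to 133, 96.4 and 72.6, a change of 2.14 ± 0.28 (adjusted p = 0.000613). Prx37 went from 42.1, 108 and 80.0 to 288, 332 and 246, a change of 1.78 ± 0.24. AT4G36430 rose by 1.23 ± 0.17, AT4G11290 by 1.202 ± 0.18 and AT5G39580 by 1.18 ± 0.21. AT1G49570 (1.47 ± 0.36) and AT3G01190 (1.07 ± 0.27) also rose, but each call was kept in 2 of the 6 single-array omissions, with an adjusted p of up to 0.0893 and 0.0925. AT1G34510 was the only one that fell, from 25.7, 22.9 and 25.1 to 0.749, 7.26 and 7.50, where line774 was at or below background, at least 2.46-fold lower. Over the omissions between 8 and 14 peroxidases rose. Control replicate 1 was the dimmest control for 9 of the 11 that rose, and without it 8 rose.

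Of 41 core genes of the response to low oxygen, also chosen after the values were seen, 21 were measured, 9 rose and 1 fell, against 5.67% and 5.49% of all genes, with a median of 0.57. AT4G39675 went from 29.8, 78.3 and 71.4 to 319.6, 328 and 340.1, a change of 2.26 ± 0.26 (adjusted p = 0.000314). AT5G10040 went from 32.7, 76.4 and 67.8 to 243, 318 and 176. AT2G17850, a rhodanese-type protein, went from 54.2, 118 and 83.7 to 175, 428 and 282, and AT3G03270, a universal stress protein, from 147, 293 and 224 to 531, 739 and 569. The groups did not overlap for these genes, and control replicate 1 was the lowest control for 9 of the 9 that rose. Without control replicate 1 the median of the group was 0.30 and 6 rose, and between 6 and 11 rose over all 6 omissions. AT4G17670 and AT5G47060 also rose, and their calls held in all 6. The calls of AT4G33560 and AT4G10270 were each kept in 2 of the 6 omissions and that of AT3G27220 in 1. Their adjusted p reached 0.117, 0.151 and 0.130. AT3G10020 went the other way, from 863, 628 and 598 to 124, 236 and 323, a change of -1.62 ± 0.26 (adjusted p = 0.00217).

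Small increases of less than 2-fold included genes of vesicle coats and microtubules. The COPI coat covers vesicles that return from the Golgi to the endoplasmic reticulum. Of 14 COPI genes, a list chosen after the values were seen, 10 were measured and 6 rose, against 5.67% of all genes, all by less than 2-fold. All 10 had positive changes, with a median of 0.39. The alpha subunit AT1G62020 went from 335, 332 and 317 to 566, 569 and 556, a change of 0.75 ± 0.07 (adjusted p = 8.81e-05), and the other alpha subunit, AT2G21390, from 435, 493 and 480.0 to 684, 698 and 731. The delta subunit AT5G05010 rose by 0.57 ± 0.08, the epsilon subunit AT1G30630 by 0.47 ± 0.07 and the gamma subunit AT4G34450 by 0.44 ± 0.09. The spread within a group was small for these bright transcripts, so changes of this size passed. The beta-prime subunit AT3G15980 rose by 0.35 ± 0.09, but this call was kept in 2 of the 6 omissions (adjusted p up to 0.105). AT1G52360, also beta-prime, had 94.4, 88.0 and 93.6 and 88.1, 104 and 99.4 and did not pass.

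Tubulins, the subunits of microtubules, rose in 4 of 7 measured members (median 0.44), against 5.67% of all genes, also on a list chosen after the values were seen. TUB9 went from 188, 201 and 168 to 337, 302 and 324, a change of 0.75 ± 0.08 (adjusted p = 0.000165), and TUA6 from 1019.6, 1009 and 873 to 1441, 1304 and 1283. TUB7 rose by 0.61 ± 0.10 and TUB1 by 0.44 ± 0.09, while TUB5, TUB6 and TUA1 did not pass, TUA1 with -0.21 ± 0.11. Of 8 cell cycle genes 2 rose and 6 did not pass, against 5.67% of all genes that rose. The 2 were the Aurora kinase genes AUR1, from 45.7, 60.0 and 49.6 to 79.0, 88.0 and 79.0, and AUR2, from 18.3, 22.8 and 28.9 to 43.4, 46.3 and 40.4. The call of AUR2 was lost without control replicate 1 (adjusted p = 0.0573) and without line774 replicate 2.

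**Figure D3:**
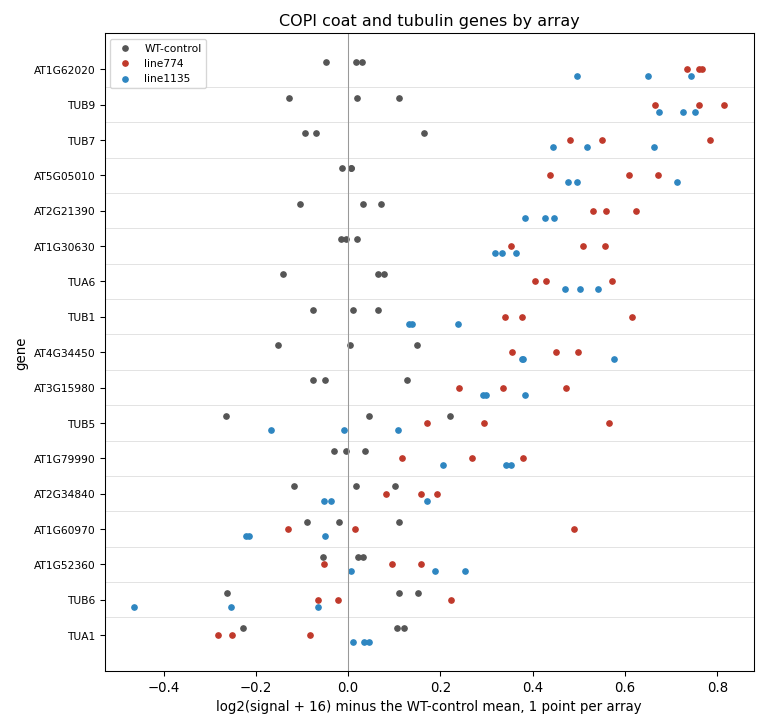
COPI coat and tubulin genes by array, as log2(signal + 16) minus the mean of the 3 WT-control arrays, with 1 point per array. The 10 genes that rose have all line774 points to the right of all WT-control points, and their changes run from 0.35 to 0.75.

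Other small increases with low p-values came from genes of varied roles. AT3G02910, a protein of the gamma-glutamylcyclotransferase-like family, went from 158, 150.0 and 153 to 337, 292 and 298, a change of 0.94 ± 0.08. AT1G18210, a calcium-binding EF-hand protein, went from 293, 333 and 296 to 608, 554 and 504, and AT2G40765, a subunit of the mitochondrial cytochrome bc1 complex, from 268, 273 and 278 to 444, 401 and 439. AT2G28790, of the thaumatin family, rose by 0.71 ± 0.07, AT5G20700, of a plant zinc-finger family, by 0.72 ± 0.08, AT5G16250 by 0.86 ± 0.10 and LCR69, a defensin-like peptide, by 0.67 ± 0.08. LCR69 was the only one of 15 measured defensin-like genes that passed, against 5.67% of all genes that rose. Cpn60beta2, a subunit of the plastid chaperonin, went from 271, 361 and 345 to 587, 590.1 and 511, a change of 0.77 ± 0.11. With Hsp70-2 (0.59 ± 0.13) it made up the 2 of 5 heat shock and chaperonin genes that rose, against 5.67% of all genes. The call of Hsp70-2 was lost without control replicate 2 (adjusted p = 0.0524).

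Among the genes that fell, the largest change was of OCT1, a carnitine transporter of the plasma membrane. OCT1 had signals of 435, 411 and 325 in the control and 12.5, 14.5 and 1.099 in line774, where 1 array was above, 1 within and 1 below the range of the background maxima over all arrays (5.36 to 13.4). The family member OCT4 fell less, from 64.2, 52.5 and 49.5 to 24.7, 26.3 and 24.3, a change of -0.79 ± 0.15. AT2G20670 went from 1279, 899 and 856 to 75.3, 67.4 and 182, and AT3G07350, of the same DUF506 family, from 669, 483 and 486 to 65.8, 83.1 and 102. AT1G19200, of the same plant zinc-finger family as AT5G20700, went from 163, 157 and 147 to 10.7, 4.42 and 2.17. Unlike the genes with the largest increases, most of these were well expressed in the control. AT1G08310, an alpha/beta hydrolase, went from 194, 183 and 128 to 11.6, 21.7 and 16.8. AT1G64590, a short-chain dehydrogenase, changed by -2.07 ± 0.19, and AT1G09500, related to cinnamyl alcohol dehydrogenases, by -2.02 ± 0.12. AT1G23390, a kelch F-box protein that marks chalcone synthase for degradation, went from 1202, 867 and 983 to 238, 207 and 323. AT2G30600, a BTB-domain protein, changed by -1.84 ± 0.16, AT3G26510 by -1.77 ± 0.14 and AT5G39520 by -1.74 ± 0.24. AT5G17340 was at or below background in line774, at least 5.46-fold lower.

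Genes that plants express when sugar or energy is short were lower in line774. In Arabidopsis this state is signalled through the kinase SnRK1, and it raises transcripts of amino acid breakdown, autophagy and growth arrest. Of 32 genes of a list of sugar and energy starvation, 5 were measured and 4 fell, against 5.49% of all genes. At 2-fold or more 3 of them fell, against 0.781% of all genes. This list, like all others here, was chosen with earlier results of these data known, so its count is not independent support. The median of the 5 was -1.09. AT3G15450, a sugar-repressed gene, went from 3016, 2949 and 2404 to 684, 803 and 1213, a change of -1.65 ± 0.18 (adjusted p = 0.000199). MCCA, the alpha subunit of methylcrotonyl-CoA carboxylase, went from 266, 208 and 275 to 106, 106 and 101, and IVD, isovaleryl-CoA dehydrogenase, from 366, 255 and 348 to 134, 152 and 141. Both enzymes act in the breakdown of leucine. AKINBETA1, a regulatory subunit of SnRK1, fell by 0.68 on the log2 scale. MCCB, the other subunit of the carboxylase, had 482, 457 and 391 and 386, 339 and 354 and did not pass (adjusted p = 0.062). The 4 that fell passed in every single-array omission.

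Of 9 measured genes of branched-chain amino acid breakdown, a list that shares MCCA and IVD with the one above and was chosen after the values were seen, MCCA, IVD, D2HGDH and ALDH6B2 fell and ETFBETA rose, against 5.49% and 5.67% of all genes. D2HGDH, which oxidises hydroxyglutarate, went from 86.3, 104 and 94.0 to 64.03, 51.1 and 56.8. ALDH6B2 changed by -0.36 ± 0.11 with an adjusted p of 0.0494, up to 0.166 without control replicate 1. ETFBETA changed by 0.47 ± 0.11, and this call was lost without control replicate 3 and without line774 replicate 3 (adjusted p up to 0.0747). MGL, which breaks down methionine, went from 369, 247 and 331 to 123, 119 and 132, a change of -1.22 ± 0.12 (adjusted p = 0.000122).

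All 10 measured autophagy genes, on a list also chosen with earlier results known, had negative changes, with a median of -0.25. Of the 10 genes 3 fell, against 5.49% of all genes. These encode ATG8 proteins, which coat the autophagosome, and the enzyme ATG3 that attaches them to its membrane. ATG8F went from 1333, 1193 and 1280.1 to 927, 922 and 954, a change of -0.43 ± 0.07 (adjusted p = 0.00234), and ATG8C from 257, 219.9 and 249 to 188, 169 and 180.1. ATG8D fell by 0.31, a call that was lost without control replicate 1, control replicate 2, line774 replicate 2 or line774 replicate 3 (adjusted p up to 0.135). APG8A had 334, 275 and 331 and 321, 293 and 311, with ranges that overlapped. ATSPS4F, a sucrose phosphate synthase, which makes sucrose from hexose phosphates, went from 363, 395 and 349 to 165, 182 and 208, a change of -0.94 ± 0.10 (adjusted p = 0.000235).

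Cold, drought and abscisic acid genes were also lower. Of 26 genes on a list also chosen with earlier results known, 6 were measured and 5 fell, against 5.49% of all genes. All 6 changes were negative, with a median of -0.83. HIS1-3, a linker histone induced by drought, went from 318, 198 and 203 to 35.4, 51.0 and 52.1. ALDH7B4, a turgor-responsive aldehyde dehydrogenase, went from 1599.8, 1296 and 1623 to 588, 976 and 748, a change of -0.97 ± 0.17. COR15A, which protects chloroplast membranes in the cold, went from 422, 282 and 315 to 49.4, 174 and 131, and line774 replicate 1 was well below the other two. The dehydrins COR47, from 1169, 1130.5 and 1139.7 to 657, 969 and 887, and LTI30, from 326, 230.1 and 196 to 104, 159 and 185, fell by less. Without control replicate 1 only HIS1-3 and ALDH7B4 of this group fell, and the adjusted p was 0.0654 for COR15A, 0.0806 for COR47 and 0.156 for LTI30. The call of COR47 was also lost without either other control array, and that of LTI30 without control replicate 2 or line774 replicate 1 or 2. COR15B did not pass, with 35.7, 12.8 and 37.1 and 12.3, 14.6 and 21.4.

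**Figure D4:**
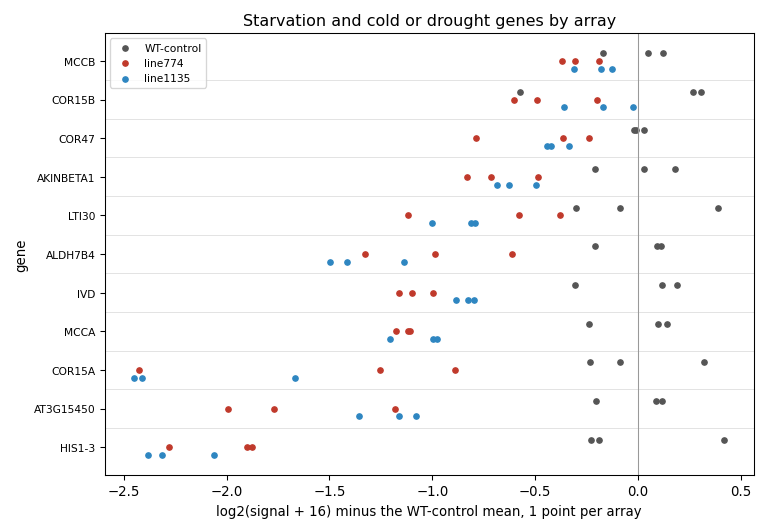
Genes of sugar and energy starvation and of cold, drought and abscisic acid by array, as log2(signal + 16) minus the mean of the 3 WT-control arrays, with 1 point per array. The 9 genes that fell have all line774 points to the left of all WT-control points, and the line1135 points lie on the same side.

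Other nutrient lists had 1 measured gene each. AT5G20790, of the phosphate starvation list, went from 176, 176 and 139 to 8.98, 23.5 and 18.1. GAT1_2.1, a glutamine amidotransferase-like gene of the nitrogen list, went from 187, 173 and 145 to 39.3, 45.2 and 25.3. BGLU28, a beta-glucosidase induced by sulfur deficiency, went from 16.7, 9.21 and 18.4 to 73.8, 28.1 and 46.3 (adjusted p = 0.0175), and its call was lost without control replicate 2 (adjusted p = 0.0700) and without line774 replicate 1.

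Among small decreases with low p-values, AT3G26580, a protein with tetratricopeptide repeats, went from 684, 638 and 632 to 301, 361 and 344, a change of -0.93 ± 0.08 (adjusted p = 3.04e-05). SKP2A, an F-box protein of the cell cycle that binds auxin, went from 269, 242 and 261 to 135, 152 and 143. AT5G43260, a protein related to DnaJ chaperones, changed by -0.78 ± 0.08, AT5G18630, a lipase, by -0.99 ± 0.11, and AT5G18600, a monothiol glutaredoxin, by -0.84 ± 0.09. AT1G02305, a cathepsin B-like protease, went from 674, 687 and 618 to 422, 436 and 411. AT5G62350, of the invertase and pectin methylesterase inhibitor family, went from 2240.0, 2203 and 2064 to 1227, 1363 and 1411, and AT5G35170, an adenylate kinase, changed by -0.73 ± 0.09. The ranges of these genes did not overlap.

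Most photosynthesis genes of the nucleus did not pass. Of 13 measured, 1 rose and 1 fell, against 5.67% and 5.49% of all genes. PORB, which reduces protochlorophyllide in the light, fell from 1442, 1274 and 1151 to 517, 751 and 729, a change of -0.95 ± 0.16 (adjusted p = 0.00257). LHCB4.3, a minor antenna protein of photosystem II, changed by 0.66 ± 0.19 with an adjusted p of 0.0478. That call was kept only without line774 replicate 2, and its adjusted p reached 0.164. The other 11 did not pass, and the median of the group was -0.12. Of 6 flavonoid genes 2 rose, against 5.67% of all genes. DFR, dihydroflavonol reductase, went from 20.2, 22.7 and 28.9 to 36.3, 45.1 and 49.6, and AT4G14090, the anthocyanidin 5-O-glucosyltransferase UGT75C1, from 7.83, 5.34 and 1.64 to 17.2, 13.1 and 18.9. Each call was lost in 4 of the 6 single-array omissions, and none of the 6 genes passed without control replicate 2 or without line774 replicate 3.

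**Figure D5:**
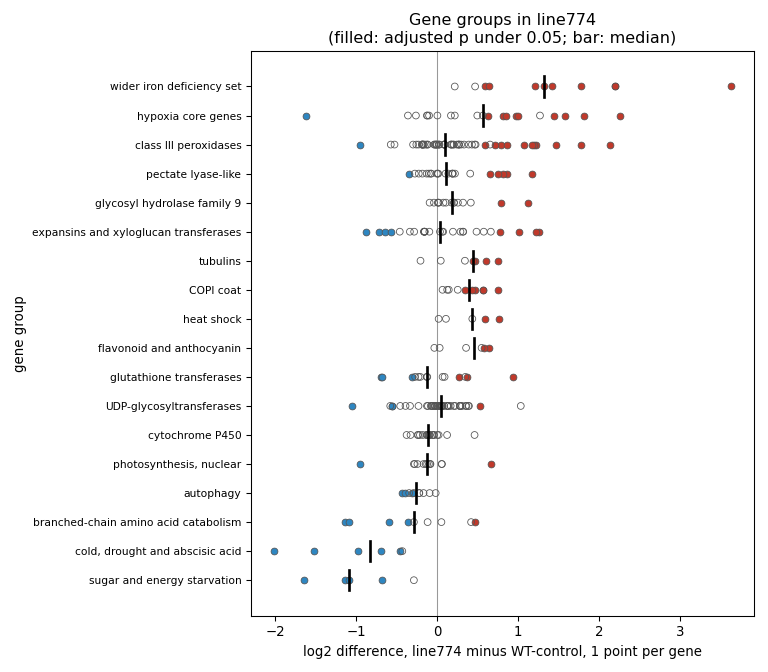
Changes of the members of 18 gene groups in line774, as log2 difference from WT-control on the horizontal axis, with 1 point per gene, filled where the adjusted p was under 0.05, and a bar at each group's median. The iron group has its median at 1.32 and every point above 0, while the starvation group has its median at -1.09 and every point below 0.

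Families of detoxifying enzymes were counted in the same way, and differences between the families were not tested. Of 20 measured cytochrome P450 genes 0 passed limma's adjusted test, against 5.67% of all genes that rose and 5.49% that fell. Their changes were negative in 16, with a median of -0.11, and 3 had an unadjusted p under 0.05. Of 47 UDP-glycosyltransferases 1 rose and 3 fell, against 5.67% and 5.49% of all genes. These counts do not set the P450 genes or the UDP-glycosyltransferases apart from all genes. UGT85A5 went from 72.9, 45.8 and 50.5 to 19.5, 18.2 and 17.7 and UGT72E1 from 272, 263 and 212 to 348, 379.7 and 369. UGT85A2 and UGT80B1 fell by 0.56 and 0.56, and without control replicate 1, control replicate 2 or line774 replicate 1 neither passed. Of 14 glutathione transferases 3 rose and 3 fell, against 5.67% and 5.49% of all genes. GSTU25 went from 22.1, 23.9 and 35.1 to 53.6, 55.9 and 94.3, GSTU20 from 1051, 945 and 1034 to 1356, 1217 and 1339.7, GSTU16 from 224, 210.1 and 216 to 117, 128 and 139 and GSTU18 from 213, 179 and 221 to 113, 112 and 140.3. GSTU27 and GSTL3 changed by 0.27 ± 0.08 and -0.31 ± 0.08, each kept in 1 of the 6 omissions, with adjusted p up to 0.159 and 0.0892.

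Among regulators of hormones or development, the WRKY and NAC factors and the auxin genes each had 1 gene that fell, against 5.49% of all genes. Counts this small do not set either group apart from all genes. WRKY22, a factor of early defence, went from 56.0, 63.7 and 46.9 to 27.3, 28.0 and 26.5, a change of -0.72 ± 0.13, and was the only one of 7 WRKY and NAC factors that passed. IAA18, a repressor of auxin responses, went from 142, 183 and 171 to 116, 123 and 107 and was the only one of 16 auxin genes that passed. The cytokinin response regulator ARR15 changed by 0.51 ± 0.17 (adjusted p = 0.0822), the clock gene GI by -0.41 ± 0.15 (adjusted p = 0.116), the jasmonate-responsive defensin PDF1.2 by 0.43 ± 0.29 and the demethylase gene DME by 0.07 ± 0.13, and none of these passed.

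Line1135 was compared with the same 3 controls, so its changes are not independent of those of line774, and the difference between the lines was tested directly, as a contrast in the fit of all 9 arrays. Against line1135, 93 of all 12293 genes were higher in line774 (0.757%) and 62 lower (0.504%). Among the 697 genes that rose in line774, 50 were higher than in line1135 and 7 lower, and among the 675 that fell 18 were lower and 5 higher. These genes were chosen by line774, which enters both comparisons, so a tilt toward line774 is built into these counts. In the group of iron deficiency genes, AT1G47400 had 169, 182 and 145 in line1135, AT3G13610 had 96.9, 170.2 and 68.7 and AT3G12900 had 12.7, 16.1 and 11.3, each below every line774 array, and 4 of the 11 genes differed between the lines. EXPA4 had 152, 143 and 148 in line1135, between the control and line774, and was higher in line774 by 0.77 ± 0.08 (adjusted p = 0.000623). ATSPS4F had 342, 398 and 311 in line1135, near the control signals above, and differed between the lines by -0.86 ± 0.10 (adjusted p = 0.0013). GSTU27 stood at 136, 129 and 132 in line1135, below all controls, while line774 stood above them, a difference of 0.77 ± 0.08 (adjusted p = 0.00031). None of the measured genes of the starvation, cold, autophagy, COPI or tubulin groups differed between the lines at an adjusted p under 0.05, which does not show that they changed alike. For MCCA, for example, the difference was -0.07 ± 0.11, with a 95% interval from -0.32 to 0.17.

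Genes that changed by 2-fold lay on all 5 chromosomes. Of the 88 that rose, 17 lay on chromosome 1 (19.3%), 17 on chromosome 2 (19.3%), 23 on chromosome 3 (26.1%), 14 on chromosome 4 (15.9%) and 17 on chromosome 5 (19.3%). Of the 96 that fell, the counts were 28 (29.2%), 21 (21.9%), 20 (20.8%), 13 (13.5%) and 14 (14.6%). The shares of all nuclear protein-coding genes measured were 26.3%, 15.3%, 20.5%, 14.4% and 23.4%. In the RefSeq gene table of TAIR10.1, 14 of the 88 (15.9%) stood next to a locus of pseudogene type, against 10 of the 96 that fell by 2-fold (10.4%) and 9.61% of all nuclear protein-coding genes. Among genes that rose by less than 2-fold the share was 8.05%. These shares are a description and were not tested.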

How the data were processed

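Total RNA of 9 samples was extracted with a column kit, labelled with biotin after amplification from the 3' end and hybridised to 1 ATH1 array each, per the labels' protocols. The authors deposited 1 linear intensity per probe set and array. The submitters' processing notes name MAS5 and GCOS without versions. Each array had been scaled to 1 level, with a 2% trimmed mean near 100 in the files. A single scale factor leaves differences of composition between arrays in place. No 2 arrays held identical values, and detection calls were not used.

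Of 22810 probe sets, 64 controls were left out and 22746 tested, with no filter. With limma 3.58.1 in R 4.3.3, 1 mean per group was fitted to log2(signal + 16) of all 9 arrays (lmFit, then eBayes with an intensity trend, 6 residual degrees of freedom), and the Benjamini-Hochberg adjustment ran over all of them. The 27 Bacillus controls, whose highest signal per array was 5.36 to 13.4, gave the background. Where a group was at or below it on all its arrays, the fold is a bound ("at least") against that background, from means of log2 signal. The platform annotation named 1 gene for 13513 probe sets, of which 13436 matched RefSeq's table of TAIR10.1. No coordinates or sequences are printed, since the arrays name no build, and the promoter motifs that had been planned were not analysed here.

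Named genes are the 15 largest increases and decreases whose arrays do not overlap, 10 increases and 10 decreases under 2-fold of lowest p with a mean signal of at least 100, and up to 4 members per gene list (or the 2 of lowest p). All members and lists were chosen with earlier results of these data known. The 8 lists of class III peroxidases, pectate lyases, COPI, tubulins, branched-chain breakdown, wider iron deficiency, hypoxia and glycosyl hydrolase family 9 were added after their values were seen, and their members were named after that too. Of the 41 other lists, those of ferritins, DNA damage, seed and aquaporin genes had no measured member, and 1 more, counted in the totals, is not reported here. The fit was tested on simulated data. Alternatives were other offsets, scalings, filters and thresholds, a fit of the 6 arrays, the replicate number as a block and leaving out each array. Figures were drawn with matplotlib 3.10.9.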

Additional observations from a re-analysis of the deposited data

Results flagged for a closer look

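In the direct limma contrast of line774 with line1135, 23 of the genes named in the text passed at an adjusted p under 0.05, and the arrays of the lines did not overlap for any of them. Differences are given as line774 minus line1135 on the log2 scale. AT1G20400 (2.99), AT5G24240 (2.66), AT1G47400 (1.08), AT3G58060 (0.89), EXPA4 (0.77), GSTU27 (0.77), AT4G24780 (0.65) and AT3G02910 (0.49) were higher in line774, and AT1G36240 (-2.84) and ATSPS4F (-0.86) were lower, and these 10 passed without any 1 of the 9 arrays. GSTU27 lay above the control in line774 and below it in line1135.

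The other 13 were higher in line774 but passed in only some of the 9 single-array omissions. AT4G33720 (2.44), AT3G29970 (1.61), AT5G19890 (1.502), AT3G13610 (1.41), BGLU28 (1.29), EXPB2 (1.19) and Prx37 (1.15) differed by over 2-fold. AT3G12900 (0.92), AT4G29200 (0.77), DFR (0.71), EXPB3 (0.57), UGT72E1 (0.53) and GH9C2 (0.46) differed by less. Over the omissions the highest adjusted p ran from 0.0677 for AT3G13610 to 0.154 for UGT72E1.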

How the results depend on the processing

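Of the values of single named genes recomputed under the other settings, 1729 stayed on their side of the threshold, 76 lost the call and 4 gained it. The 1729 include values that passed in neither fit and changed sign, as for DME and EIN3. Among genes that passed in either fit, 1 value reversed: another probe set of GAT1_2.1, near background, gave 0.0837 (adjusted p = 0.787). Of 91 named genes that passed, 78 did so in all 6 single-array omissions. At an offset of 1, 199 protein-coding genes were higher and 164 lower at 2-fold, and at an offset of 64, 31 and 40. At an adjusted p under 0.01, 649 probe sets were higher and 706 lower, 283 and 335 protein-coding genes, and 6 of the genes named by rule differed between the lines, against 17 at 0.05 (the 23 given above also count other list members). Over the single-array omissions, 892 to 1160 probe sets were higher and 879 to 1163 lower, 396 to 533 and 423 to 557 protein-coding genes at any fold, and 73 to 94 and 78 to 118 at 2-fold. The lowest counts at any fold came without control replicate 1, where 789 of the 1372 calls remained. Between 8 and 19 genes named by rule differed between the lines, 8 without line774 replicate 2 or line1135 replicate 1 and 9 and 10 without line774 replicate 1 or line1135 replicate 3; an omission also leaves fewer samples, and the cause was not tested beyond that. The omission of line1135 arrays, and that of probe sets near background, were added after seeing the data. In a fit of the 6 arrays without line1135, 630 protein-coding genes were higher and 597 lower, and 1128 of the 1372 calls remained. With the replicate number as a block, 703 protein-coding genes were higher and 700 lower, and LHCB4.3 and ALDH6B2 lost the call while ARR15 and EXPA7 gained it. Deviations of control and line774 arrays with the same number correlated at 0.04, 0.04 and 0.09, and those with different numbers at -0.10 to 0.06. Whether arrays of the same number belong together was not tested. Dim genes limit the comparison, since changes near background are understated.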
